A study of Mus musculus with 8 samples.

Results

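The Mical family comprises 5 mouse genes, Mical1, Mical2, Mical3, Micall1 and Micall2. They were taken by name from a table of 22609 gene symbols, and all 5 had a row and passed the filter on low values, as did 14704 genes in all. The family was selected on measured values: it was chosen by the limma p of Mical3, the smallest among the genes past that filter for fear conditioning over context control. With no filter on low values it ranked 5 of 16719 genes. Every value of that contrast below is therefore a description of Mical3 and not a test of it.

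Total RNA was sequenced from the anterior cingulate part of the medial prefrontal cortex, taken from both hemispheres of B6.SJL mice aged 3 months, dissected and frozen an hour after behavioural training. Fear conditioning samples came from mice that spent 3 min in a chamber and then received 2 unsignalled foot shocks (0.8 mA, 2 s each, 30 s apart), staying 15 s more. Context controls were placed in the same chamber without shock. The design text gives 4 biological replicates for either condition, and no label names a transgene or an agent. The labels do not say whether 1 sample is 1 animal, so p-values measure the spread between these samples.

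MICAL proteins are flavoprotein monooxygenases that oxidise methionine residues of filamentous actin and so take filaments apart, a reaction that the methionine sulfoxide reductase MSRB1 reverses. In Drosophila, Mical acts below plexins, the receptors of semaphorins, in axon guidance and in shaping neuronal processes. The MICAL-like proteins share the calponin homology, LIM and Rab-binding parts of the family but lack the monooxygenase domain, and act in endosomal recycling. In neurons, actin turnover of this kind bears on growth cones, dendritic spines and vesicle traffic.

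The deposited counts are per gene, so reads from different start sites of a gene were not told apart, and RefSeq (GRCm38.p6) lists more than 1 start for Mical3. The 250 bases before each listed start of Mical3, the gene that led the table, are shown with those of Mical2, the most abundant member, because start-site use is what these counts leave unseen. Each is 5′ to 3′ on the strand of the gene, and capitals mark matches, on either strand, to the motifs named after them.
Mical3, inner start, chr6:121081628-121081877, minus strand: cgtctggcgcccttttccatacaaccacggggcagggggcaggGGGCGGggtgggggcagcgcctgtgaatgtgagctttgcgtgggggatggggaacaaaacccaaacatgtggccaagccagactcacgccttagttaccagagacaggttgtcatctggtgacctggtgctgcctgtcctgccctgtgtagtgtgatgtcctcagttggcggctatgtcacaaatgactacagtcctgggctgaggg
Mical3, outer start, chr6:121131023-121131272, minus strand: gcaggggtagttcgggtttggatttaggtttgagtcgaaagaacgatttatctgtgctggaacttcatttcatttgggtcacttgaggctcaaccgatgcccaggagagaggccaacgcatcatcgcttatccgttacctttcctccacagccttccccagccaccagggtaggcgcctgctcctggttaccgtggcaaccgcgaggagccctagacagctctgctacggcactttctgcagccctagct
Mical2, chr7:112225586-112225835, plus strand: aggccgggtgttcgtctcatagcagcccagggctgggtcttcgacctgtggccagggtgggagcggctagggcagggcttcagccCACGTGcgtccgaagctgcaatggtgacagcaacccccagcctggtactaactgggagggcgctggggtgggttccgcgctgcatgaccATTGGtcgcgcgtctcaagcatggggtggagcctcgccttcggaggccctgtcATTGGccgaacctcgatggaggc
The motifs searched were the cAMP response element TGACGTCA, the AP-1 site TGANTCA, the EGR site GCGTGGGCG, the E-box CACGTG, the GC box GGGCGG and the CCAAT box CCAAT. None of these motifs overlapped another in the windows shown. Neither Mical3 window held the first 3, the sites of activity-regulated factors, which 1.55%, 6.75% and 0.536% of 32817 such windows held in the order named. The inner window held 1 GC box, as did 32.7% of windows, and the outer window held none of the 6. The Mical2 window held 1 E-box (6.02% of windows) and 2 CCAAT boxes (33.8%), both read on the opposite strand. A match is a description of letters, and a missing one says nothing about a factor.

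Recovered gene reads per sample ranged from 1992452 to 3565356, with 14276 to 15161 genes above 0. The libraries fell into sets by replicate number before they fell by group. The leading principal component, over 8737 genes without the family, held 60.6% of the variance and placed replicates 1 and 2 of both groups on one side and replicates 3 and 4 on the other. No label says what the replicate numbers stand for. Each value below is a gene's read count after scaling of its library by 1 factor, and log2 changes are of the value plus 1.

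Mical3 encodes the family member that works with RAB8 and the active zone protein ELKS in docking exocytotic vesicles in cultured cells. It was at 53.9, 62.3, 61.5 and 62.4 in fear conditioning replicates 1 to 4, against 30.7, 18.8, 25.2 and 25.8 in context control replicates 1 to 4. Every conditioned sample lay above every control, with a gap between the lowest conditioned sample and the highest control that was wider than either group. Of all genes tested, 0.979% had every conditioned sample above every control, whatever the width of the gap. How many had a gap as wide was not counted. A log2 change of at least 1 was seen in 1.14%, and 1.18% were higher at an unadjusted limma p under 0.05. Since this contrast chose the gene, nothing is read from those shares. The means were 60.0 ± 4.1 after fear conditioning and 25.1 ± 4.9 in context controls (SD, n = 4 each), a ratio of 2.39. The log2 change was 1.24 with a standard error of 0.26 and a 95% interval of 0.67 to 1.81.

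The value that chose the family was the limma p of Mical3, 0.000425 before adjustment. That p multiplied by the 14704 genes tested is 6.24, and the adjusted p was 0.9998. The next of these genes, Uevld, had an unadjusted p of 0.000923. No gene passed the threshold of 0.05 after adjustment in limma (0%), Mical3 included, and 397 genes had an unadjusted p under 0.05. Count models fitted to the recovered reads passed 0 genes as well. edgeR gave 385 genes an unadjusted p under 0.05 and DESeq2 340, and Mical3 ranked first in both (adjusted p = 0.9996 in edgeR and 0.539 in DESeq2).

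Mical3 was measured on few reads. It had 39, 47, 45 and 65 recovered reads in the conditioned samples and 37, 14, 25 and 16 in the controls. Its within-group spread was close to that of read counting alone. The ratio of the observed to the counting variance was 0.201 among conditioned samples and 1.10 among controls, where 1 is counting error alone. Of 2090 genes with a mean read number within 1.5-fold, 3.25% had a lower ratio over both groups, and their median was 3.41. A small spread lowers a p, so this tightness is part of what chose the gene and not separate evidence for the difference.

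**Figure D1:**
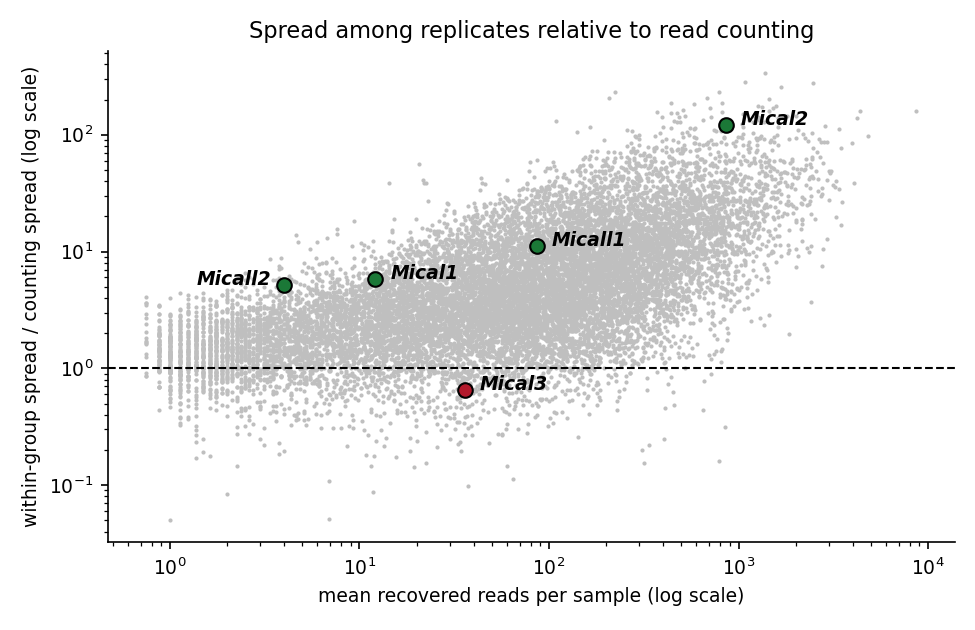
Within-group variance of recovered reads divided by the variance expected from read counting (vertical, log scale, mean of both groups) against mean reads per sample (horizontal, log scale), for each gene tested (grey). Mical3 (red) sits at 0.649, below the dashed line of counting error alone, and Mical2 sits at 121, high among genes of its level.

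Mical2 encodes the monooxygenase that also oxidises nuclear actin and so raises the activity of serum response factor (SRF) with its coactivator. It was at 1384, 1349, 713 and 579 in fear conditioning replicates 1 to 4, against 1272, 1259.7, 719 and 847 in context control replicates 1 to 4. The groups overlapped throughout, and the high and low samples followed the replicate number. Means were 1006 ± 419 after conditioning and 1024 ± 284 in controls (SD, n = 4 each), a log2 change of -0.084 (95% interval -0.71 to 0.54).

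Replicates 1 and 2 of both groups averaged 1316 for Mical2 and replicates 3 and 4 averaged 715, a log2 difference of 0.89. All 4 samples with numbers 1 and 2 lay above all 4 with numbers 3 and 4, as for 14.5% of genes tested. Over the 8 libraries Mical2 correlated with the leading component at r = -0.97. Of 11184 genes with a mean of at least 10, predicted and unnamed loci left out, 4.07% had a larger correlation in size. Both measures come from the same libraries, and this division was noticed in the values, so no test is given. For Mical3 the correlation with that component was 0.03. The log2 change of Mical3 was 1.23 within replicates 1 and 2 and 1.25 within replicates 3 and 4. That of Mical2 was 0.11 and -0.28 in the same order. Mical3 was chosen on these same values, for a difference with little spread, so its likeness between the sets is not separate support.

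**Figure D2:**
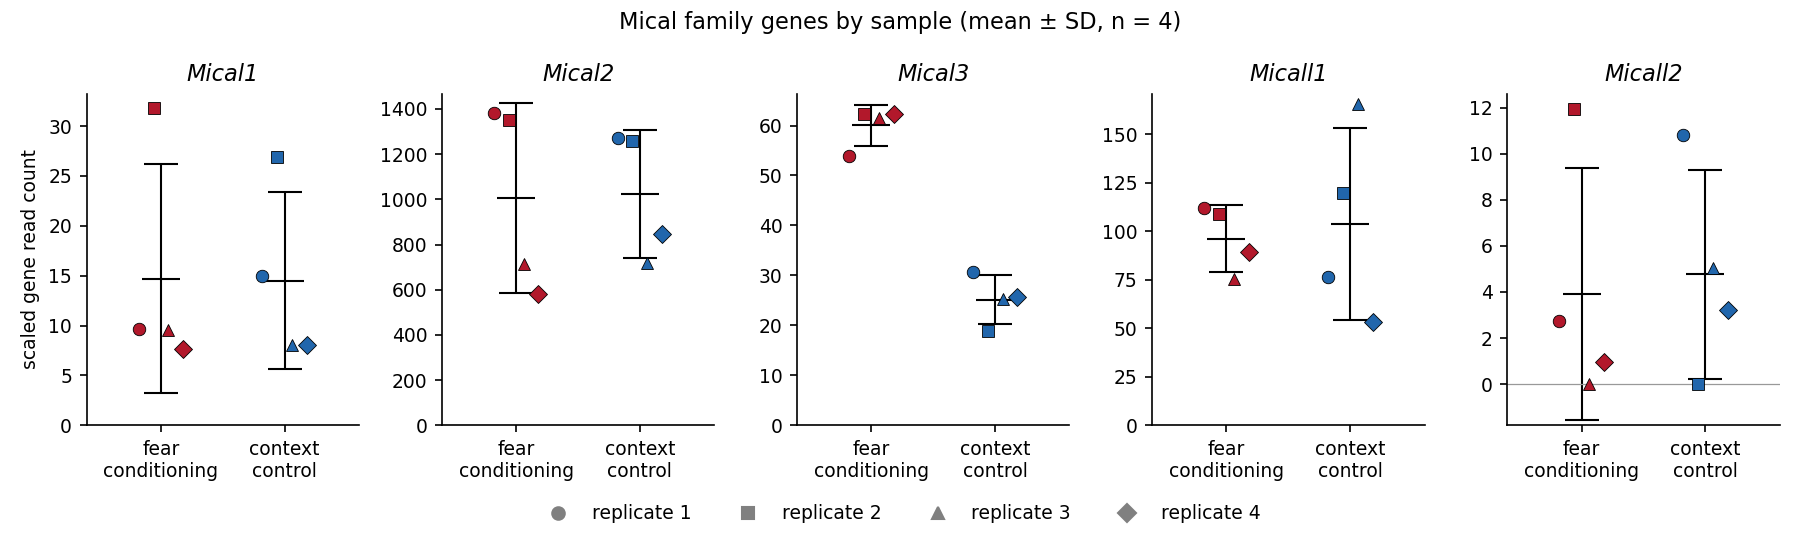
Scaled gene read count (vertical) of the 5 genes in each sample, with fear conditioning in red, context control in blue, symbols for the replicate number and bars for mean ± SD (n = 4). Mical3 lies between 53.9 and 62.4 in the conditioned samples and between 18.8 and 30.7 in controls, and the other 4 genes overlap between the groups.

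Mical1 encodes the founding family member, which binds the adaptor CasL and inhibits NDR kinases. It was at 9.67, 31.8, 9.57 and 7.68 in fear conditioning replicates 1 to 4, against 14.9, 26.9, 8.07 and 8.05 in context control replicates 1 to 4. Replicate 2 was the highest sample of each group, and all samples numbered 1 and 2 lay above all numbered 3 and 4, though by as little as 9.67 against 9.57, which are 7 reads each. These values rest on 5 to 24 reads per sample. Means were 14.7 ± 11.5 after conditioning and 14.5 ± 8.87 in controls (SD, n = 4 each), a log2 change of -0.046 (95% interval -1.19 to 1.09).

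Micall1 encodes an organiser of tubular recycling endosomes that binds RAB8, RAB35 and the membrane-shaping protein EHD1. It was at 111.9, 108.8, 75.2 and 89.2 in fear conditioning replicates 1 to 4, against 76.4, 119.5, 165.4 and 53.1 in context control replicates 1 to 4. The conditioned samples lay inside the range of the controls, whose replicate 3 was highest and replicate 4 lowest of all 8. Means were 96.3 ± 17.3 after conditioning and 103.6 ± 49.5 in controls (SD, n = 4 each). The log2 change of 0.0048 had a 95% interval of -0.68 to 0.69.

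Micall2 encodes a partner of RAB13 and alpha-actinin at epithelial junctions. It was at 2.76, 11.9, 0 and 0.959 in fear conditioning replicates 1 to 4, against 10.8, 0, 5.04 and 3.22 in context control replicates 1 to 4. That is 0 to 13 reads per sample, and a count of 0 allows up to 3 reads, or 4.10 on the scale of the values in fear conditioning replicate 3 and 4.03 in context control replicate 2. Counts this low give no ratio that can be read, and the fitted log2 change of -0.41 had a 95% interval of -2.34 to 1.51. Such limits cover counting error only.

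**Figure D3:**
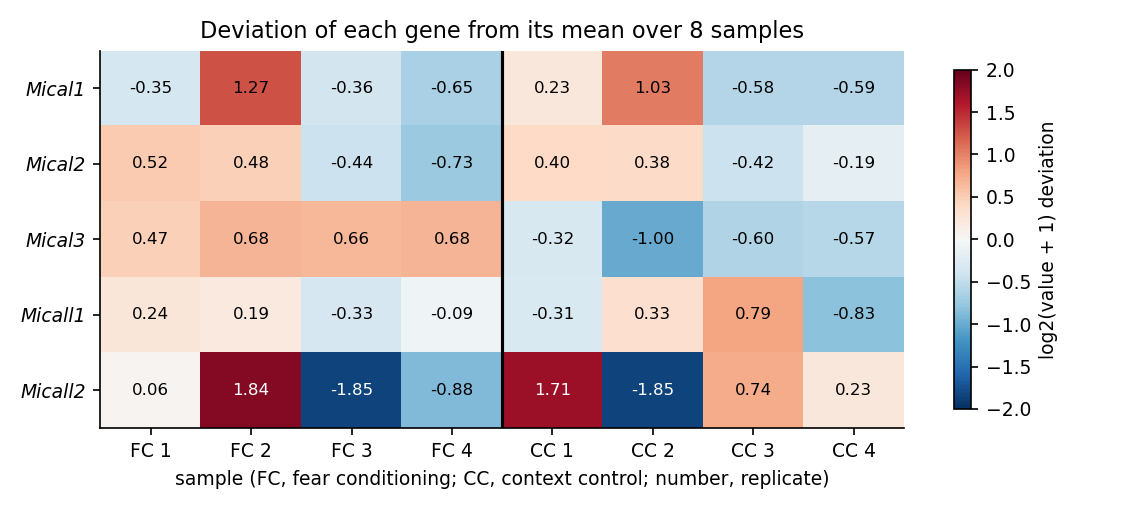
Deviation of log2(value + 1) from the gene's mean over 8 samples (colour and printed number), with genes as rows and samples as columns, fear conditioning left of the line. Mical3 is above its mean in all 4 conditioned samples (0.47 to 0.68) and below it in all 4 controls (-1.0002 to -0.32), whereas Mical2 is above its mean in replicates 1 and 2 of both groups.

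Levels were compared between members per kilobase of the longest GENCODE vM21 transcript. The comparison did not enter the choice of the family, though the values of Mical3 in it did. Mical2 was the most abundant at 152 ± 49.7 scaled counts per kilobase (SD, n = 8), followed by Micall1 at 14.9 ± 5.15, Mical3 at 4.62 ± 2.08, Mical1 at 4.00 ± 2.60 and Micall2 at 1.30 ± 1.396. Mical2 exceeded Micall1 by 3.34 on the log2 scale in 8 of 8 samples, and Micall1 exceeded Mical3 by 1.73 in 8 of 8 (exact sign-flip permutation test, two-sided, p = 0.00781 for each, the smallest possible, adjusted over 10 pairs p = 0.00977). Mical1 lay above Micall2 in 8 of 8 samples, with the same exact p and adjusted p, but Micall2 rests on 0 to 13 reads, so no size is read from that pair. With the median transcript length in place of the longest, Mical2 exceeded Micall1 by 2.26.

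Mical3 and Mical1, neighbours in this order, did not differ beyond their spread per kilobase (log2 difference 0.21, higher in 5 of 8 samples, exact permutation p = 0.609, adjusted p = 0.609). Without the length correction the difference was 1.54 and passed (exact permutation, adjusted p = 0.0156), so this call rests on the lengths used. In conditioned samples Mical3 averaged 6.52 ± 0.448 per kilobase and Mical1 4.03 ± 3.15, and in controls Mical3 averaged 2.73 ± 0.531 and Mical1 3.97 ± 2.43 (SD, n = 4 each). The log2 difference per kilobase was 0.85 in conditioned samples and -0.44 in controls. The spread in the test of this pair therefore holds the contrast that chose Mical3. In all, 9 of 10 pairs passed. With 4 samples in 1 group the test cannot pass, so it was run over all 8. Mical2 made up 78.3% to 88.6% of the family's summed scaled counts in conditioned samples and 77.9% to 90.5% in controls.

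**Figure D4:**
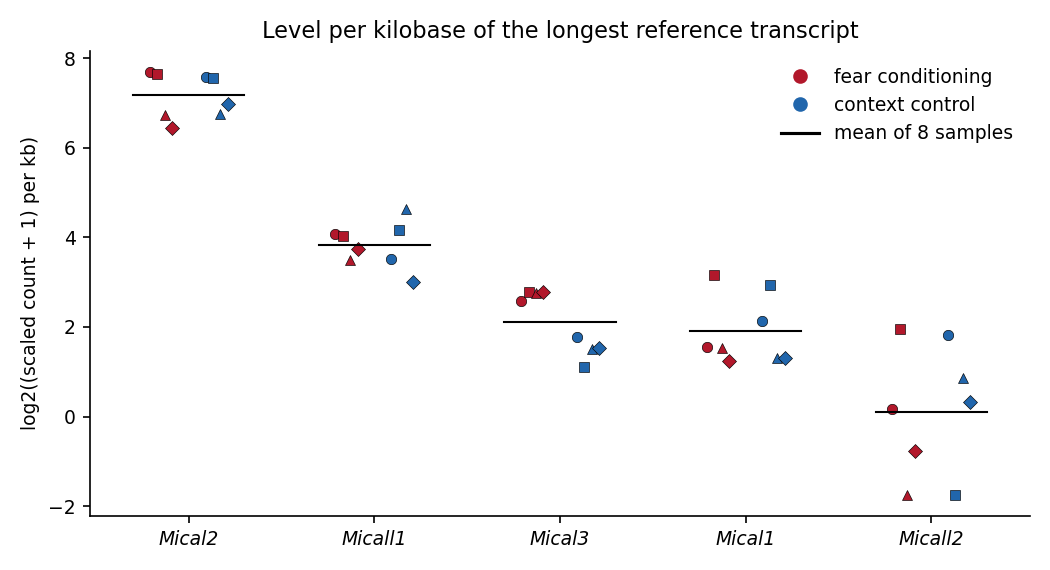
Level as log2 of the scaled count plus 1 per kilobase (vertical) for the 5 genes in order of their mean (black line, n = 8), with fear conditioning in red left of context control in blue and symbols for the replicate number (circle 1, square 2, triangle 3, diamond 4). Mical2 stands above Micall1 in every sample, while Mical3 and Mical1 overlap.

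Over the 8 libraries the correlation of log2 values was 0.71 between Mical1 and Mical2, and the other 9 pairs lay between -0.15 and 0.39. After each group's mean was removed, Mical3 stood at 0.63 with Micall2, whose reads were few, and at -0.42 with Micall1. Mical1 correlated with the leading component at -0.75, and 40.3% of the same 11184 genes had a larger correlation in size. These are descriptions over shared libraries of differing depth.

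Likeness to Mical3 across the 8 samples was ranked by Pearson r. The ranking ran over 11183 genes with a mean of at least 10, with predicted and unnamed loci left out. The 5 most alike were Zfp932 (zinc finger protein, r = 0.95), Abcc5 (exporter of cyclic nucleotides, 0.95), Htt (huntingtin, 0.94), Gpr45 (orphan receptor, 0.93) and Traip (ubiquitin ligase, 0.93). In each of the 5 every conditioned sample lay above every control, a property that likeness to Mical3 selects. After each group's mean was removed the correlations were 0.79, 0.80, 0.47, 0.83 and 0.50 in the same order. These too were selected, since the 5 genes led the ranking over the same 8 samples. The within-group spread of Mical3 was no wider than counting error (ratio 0.649 over both groups), so no shared variation is read from them. Abcc5 had means of 325 ± 9.57 after conditioning and 267 ± 23.1 in controls, and Traip 18.8 ± 3.87 and 5.75 ± 2.25 (SD, n = 4 each).

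For Mical2 the closest genes were the tyrosine kinase gene Src (r = 0.995) and Zfp523 (0.994), and both ran with the replicate number. Src averaged 360 in replicates 1 and 2 and 176 in replicates 3 and 4, and Zfp523 144 and 38.6. For Mical1 they were Acp6, a lysophosphatidic acid phosphatase, and the actin-binding Ablim3 (both 0.96). For Micall1 they were the mitochondrial carrier gene Slc25a27 (0.96) and Kctd18 (0.95), and for Micall2 the kinase gene Pim1 and the early response gene Ier5 (both 0.95).

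Genes whose products work with MICAL proteins were described in 7 lists with 60 members, all of which were tested. None of the 60 passed the threshold, against 0% of all genes, and 2 had an unadjusted p under 0.05. These were Ehbp1, higher (1 of 60, beside 1.18% of all genes), and Vim, lower (1 of 60, beside 1.52%). The log2 change was positive for 40 and negative for 20, beside 51.8% and 48.2% of all genes tested. The median was 0.069 beside 0.0095 over all genes tested. Every conditioned sample lay above every control for 2 of the 60, Ehbp1 and Plxna4, beside 0.979% of all genes. Every conditioned sample lay below every control for 0 of the 60, beside 0.939%.

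The relatives carrying the same C-terminal Rab-binding domain were Ehbp1, Ehbp1l1 and Micalcl. Ehbp1, which links endosomes to actin, was at 261, 249.4, 301 and 317 in fear conditioning replicates 1 to 4, against 236, 216, 210 and 198 in context control replicates 1 to 4. The groups did not overlap, and the log2 change was 0.39 (95% interval 0.054 to 0.72, limma adjusted p = 0.9998). Ehbp1l1 averaged 69.0 ± 16.0 after conditioning and 59.7 ± 13.7 in controls, and Micalcl 4.99 ± 5.37 and 4.81 ± 4.23 (SD, n = 4 each), the last on a few reads.

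The Rab GTPases and Arf6, the switches that recruit MICAL proteins to membranes, stood at log2 changes between -0.13 and 0.20 in all 12 members. Their median of 0.026 was close to that of all genes. Those with the smallest p were Rab6b, a neuronal Golgi form (3429 ± 345 after conditioning and 3193 ± 410 in controls), Rab36 (46.8 ± 10.8 and 41.4 ± 14.4) and Rab6, the older symbol of Rab6a (2284 ± 246 and 2212 ± 378). Rab8a, a partner of Mical3, averaged 147 ± 14.7 after conditioning and 152 ± 3.2 in controls (SD, n = 4 each; chosen for its role and not by the rule for named genes).

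Vesicle and endosome partners had 6 of 11 members with a positive log2 change, beside 51.8% of all genes, and a median of 0.015. Erc2, a presynaptic member of the ELKS family, averaged 842 ± 155 after conditioning and 708 ± 76.5 in controls. The recycling gene Ehd1 averaged 117 ± 35.3 and 103 ± 13.3, and Arhgap26, which encodes the endocytic protein GRAF1, 871 ± 162 and 810.0 ± 129, conditioned samples first (SD, n = 4 each). In 6 of the 11, replicates 1 and 2 all lay above replicates 3 and 4, as in Mical2, beside 14.5% of all genes. As a ratio of the lowest sample numbered 1 or 2 to the highest numbered 3 or 4, the gap was widest in Pacsin3, a binder of dynamin, at 62.1, 58.4, 13.7 and 8.63 in fear conditioning replicates 1 to 4, against 53.2, 49.7, 18.2 and 19.3 in context control replicates 1 to 4 (chosen after its values were seen).

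The plexin and semaphorin arm had a positive log2 change in 12 of 13 members, beside 51.8% of all genes, a count that was not tested. The positive changes ran from 0.046 in Sema3b to 0.39 in Nrp1, and some were near 0. Sema3b averaged 4.72 after conditioning and 4.63 in controls, and Sema3d 68.1 and 68.0. The median was 0.18 and none passed. Plxna4, a receptor for class 3 semaphorins, was at 570, 558, 567 and 651 in fear conditioning replicates 1 to 4, against 488, 509, 541 and 468 in context control replicates 1 to 4. The groups did not overlap, and the log2 change was 0.23 (95% interval -0.056 to 0.51). Plxna2 averaged 759.7 ± 56.9 after conditioning and 651 ± 95.7 in controls, and the ligand gene Sema3c 326 ± 101 and 247 ± 23.5 (SD, n = 4 each). With replicates 1 and 2 only, the log2 change was 0.18 for Plxna4, -0.00638 for Plxna2 and 0.010 for Sema3c. With replicates 3 and 4 only, it was 0.27, 0.47 and 0.69 in the same order. The 1 member with a negative change was the repulsive ligand gene Sema3a, at 119 ± 32.3 after conditioning and 157 ± 57.1 in controls.

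Among genes of actin and its oxidation, 5 of 8 members had a positive change, beside 51.8% of all genes, with a median of 0.056. The actin gene Actb averaged 1171 ± 276 after conditioning and 1064 ± 174 in controls, and Cfl2, which encodes an actin-severing cofilin, 464 ± 99.7 and 387 ± 82.6 (SD, n = 4 each). The reductase gene Msrb3 averaged 37.5 ± 16.8 after conditioning and 52.2 ± 26.0 in controls. Sepx1, the older symbol of Msrb1, averaged 45.7 ± 18.1 after conditioning and 51.2 ± 13.8 in controls (SD, n = 4 each; named for its role).

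In the SRF arm, which MICAL2 feeds, 4 of 6 members had a positive change (median 0.21), beside 51.8% of all genes. The coactivator gene Mkl2 averaged 1216 ± 69.9 after conditioning and 1053 ± 102 in controls. The smooth muscle genes Myl9 and Tagln averaged 39.6 ± 34.8 and 44.7 ± 51.9 after conditioning, against 61.6 ± 4.96 and 61.9 ± 42.0 in controls (SD, n = 4 each). Of the kinase and adaptor partners, 3 of 7 had a positive change (median -0.059), beside the same 51.8%. Vim, encoding the filament protein vimentin, averaged 128 ± 56.1 after conditioning and 207 ± 72.0 in controls, the NDR kinase gene Stk38 67.9 ± 15.5 and 90.3 ± 17.9, and Nedd9, encoding CasL, 85.6 ± 17.9 and 73.9 ± 13.4. The log2 change of Vim was -0.095 with replicates 1 and 2 only, -1.415 with replicates 3 and 4 only, and -0.43 without fear conditioning replicate 3.

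**Figure D5:**
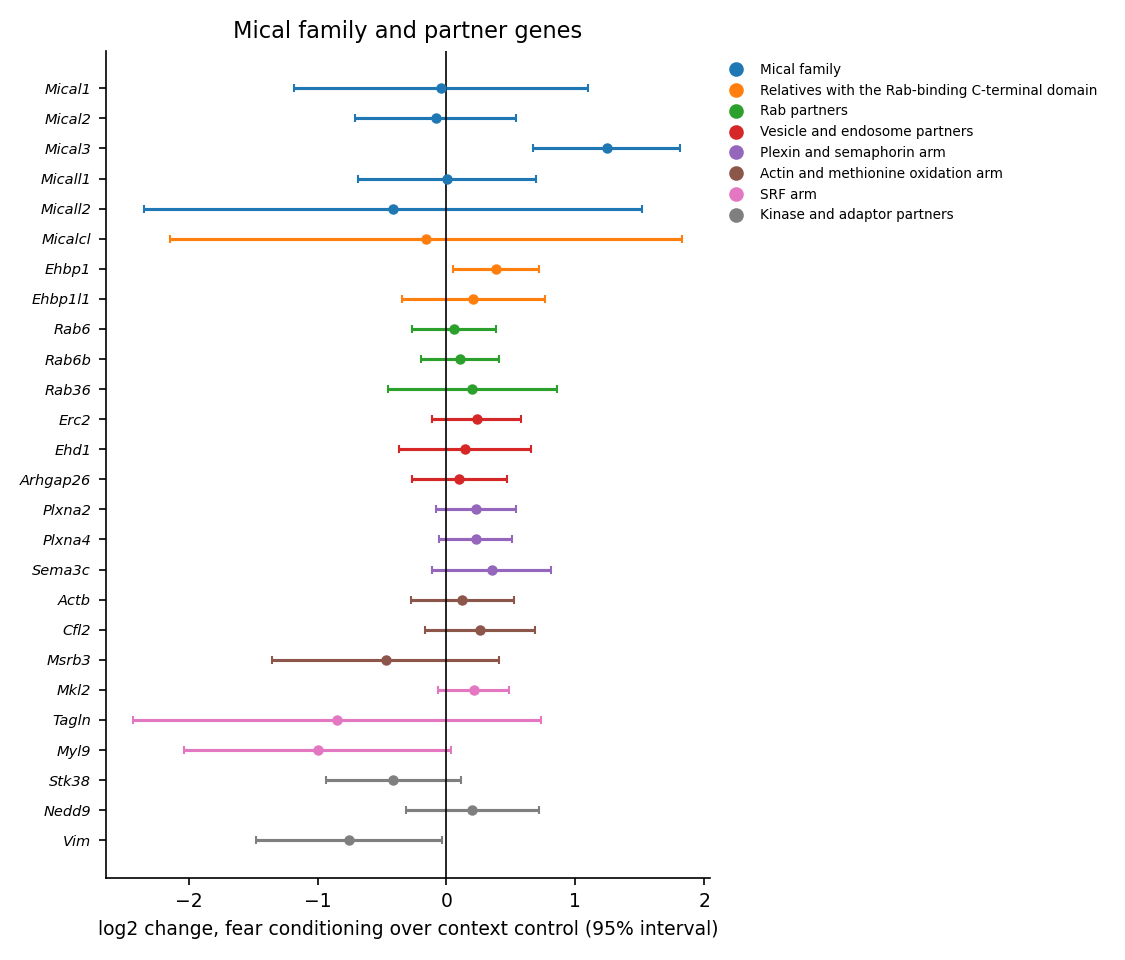
Log2 change of fear conditioning over context control (horizontal, points with 95% intervals from limma) for the 5 family genes and the 3 genes of each partner list with the smallest p, coloured by list. Mical3 stands at 1.24, Ehbp1 at 0.39 and Vim at -0.75, and no gene passed after adjustment over all 14704.

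The tissue carried the markers of cortex. Excitatory neuron markers summed to 8284 to 12630.0 in conditioned samples and 8765 to 11761 in controls, over 6 of 6 genes. No marker of any list passed the threshold, and 48.2% of all genes tested had a negative log2 change. All 6 astrocyte markers had negative changes (median -0.34), with sums of 4342.5 to 5439.7 in conditioned samples and 5472 to 7687 in controls. All 6 endothelial and mural markers did too (median -0.55), with sums of 593 to 787 in conditioned samples and 802 to 1019 in controls. The sums of these lists did not overlap between the groups, though both were close at their edges (5439.7 and 5472 for astrocytes, 787 and 802 for endothelial and mural markers). Taken singly, all 6 endothelial and mural genes had overlapping groups. Among the astrocyte genes, the groups overlapped in Slc1a3, the largest member, and in Aqp4, Aldh1l1, Gfap and Gjb6. In Gja1 alone every conditioned sample lay below every control, beside 0.939% of all genes tested. How often the sums of other gene lists part was not counted. All 6 microglial markers had negative changes as well (978 to 1208 after conditioning, 1163 to 1395 in controls), and so did all 7 oligodendrocyte markers (2637 to 4147 after conditioning, 2311 to 8534 in controls), and in both lists the sums overlapped. All 6 deep-layer neuron markers had positive changes, with sums of 1199 to 2026 in conditioned samples and 892 to 1622 in controls, which overlapped. Interneuron markers had 2 positive and 4 negative changes, with sums of 2919 to 3337 in conditioned samples and 2868 to 3155 in controls, and striatal markers 3 and 3, with sums of 541 to 724 and 474 to 847. Blood markers were low, with sums of 4.80 to 18.6 in conditioned samples and 8.06 to 47.4 in controls, most of it from Alas2. Hba-a1 was at 0 in all samples, and no absence of blood is read from that gene. Choroid plexus markers were low as well, with sums of 2.73 to 35.8 in conditioned samples and 4.98 to 27.2 in controls. No fall is established here, and in bulk tissue fewer cells of a type and less RNA per cell could not be told apart. The part of any of these lists in the Mical3 values was not tested.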

How the data were processed

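Total RNA of 8 mouse prefrontal cortex samples was sequenced, and samples were grouped by title. The deposited table is named FPKM, but all values above 0 in each column (100%, within 0.01 of a read) were whole multiples of a step. The deposited signal is therefore a gene read count divided by a factor per sample, not corrected for length, and how the authors set the factor is not given in the sources used here. Per the submitters' processing notes, reads went through TopHat and HTSeq, with no version stated, and the notes also name hg19, a human build, so no coordinate of a count is given. Strandedness is not given in the sources used here. RefSeq lists genes overlapping Mical1, Mical3 and Micall1 (2, 4 and 1), of which 1, over Micall1, has a row.

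Values were analysed as log2(value + 1), over genes with a mean of at least 1, in limma 3.58.1 (R 4.3.3, eBayes with trend), two-sided, with Benjamini-Hochberg adjustment over all 14704 genes. Alternatives included count models on the recovered reads (edgeR 4.0.16, DESeq2 1.42.0), other pseudocounts, filters, scalings and lengths, and leaving out samples. The fitting scripts were tested on simulated data. Members, partner lists and markers were chosen with earlier results of these data known. The 3 genes with the smallest p were named from each list. No library copied another of its group (chi-square per degree of freedom 2.50 to 23.6). Same-numbered samples deviated together (r = 0.40, 0.41, 0.16 and 0.20 for numbers 1 to 4), so the replicate numbers were treated as pairing them in an alternative fit. Other pairs correlated as much, up to 0.64 between fear conditioning replicate 4 and context control replicate 3. No protein sequences were used here.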

Additional observations from a re-analysis of the deposited data

Results flagged for a closer look

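In 52 groups of 4 (the family and the named partner genes, 26 genes), 4 had a sample standing apart from the other 3 by Dixon's criterion, where chance gives about 1 in 20. Mical1 was 31.8 in fear conditioning replicate 2 and 7.68 to 9.67 in the other conditioned samples. Mical3 was 53.9 in fear conditioning replicate 1 and 61.5 to 62.4 in the other conditioned samples, all above the controls. The variance of Mical3 among conditioned samples was 0.201 of that of read counting, so no departure of replicate 1 beyond counting error is read. Plxna4 was 651 in fear conditioning replicate 4 and 558 to 570 in the other conditioned samples. Erc2 was 822 in replicate 4 of the context controls, whose remaining samples were at 666 to 678.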

How the results depend on the processing

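This contrast chose Mical3 and its groups did not overlap, so a kept direction is a description and not support. The log2 change of Mical3 kept its direction in all 23 alternatives. It ranged from 1.004 at a pseudocount of 10 to 1.34 without context control replicate 1. The adjusted p of Mical3 was never below 0.539, its value in DESeq2. It had the smallest p in 9 of the 23, rank 5 with no filter on low values and rank 176 with replicates 1 and 2 only. With the replicate number as a block it was 1.24 and 0 genes passed, and the block changed no call. Genes past the threshold numbered 2 with replicates 1 and 2 only and 0 to 1 with a sample left out (1, Uevld, without fear conditioning replicate 4), and 0 otherwise. Partner genes past the threshold numbered 0 throughout.

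Members without a clear change turned direction. Micall1 was -0.00464 at a pseudocount of 10, -0.006905 with TMM scaling, -0.12 in edgeR, -0.12 in DESeq2, -0.19 with replicates 3 and 4 only, and -0.033 with GC correction, with or without the replicate block. Mical1 was 0.10 with quantile normalization, 0.002332 in DESeq2 and 0.080 with replicates 3 and 4 only. With replicates 1 and 2 only, Mical2 was 0.11, Micall2 1.02, Micalcl 1.65, Arhgap26 -0.27, Plxna2 -0.00638, Msrb3 0.22 and Tagln 0.63. With replicates 3 and 4 only, Rab6 was -0.004497, Ehd1 -0.074 and Actb -0.072. Rab6 was -0.052 with quantile normalization, and with array weights Micalcl was 0.13 and Arhgap26 -0.033. With a sample left out in turn, Mical1 ranged from -0.48 to 0.29, Mical2 from -0.27 to 0.15, Micall1 from -0.27 to 0.27, Micall2 from -1.10 to 0.13, Micalcl from -0.85 to 0.49, Rab6 from -0.036 to 0.16, Ehd1 from -0.012 to 0.28 and Arhgap26 from -0.004669 to 0.20. The causes were not tested. Micall2 had no value at a mean of at least 10, which removes it.

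Between the longest and the median transcript length, Mical1 over Micall2 moved from 1.79 to 3.42. Of 10 level pairs, 0 passed with fear conditioning only and 0 with context controls only, where 4 samples cannot pass. Without length correction all 10 passed, Mical3 over Mical1 included (1.54). In controls alone Mical1 stood above Mical3 (Mical3 over Mical1 -0.44), and the order was otherwise the same under every length and every left-out sample. GC correction, and a fit with a term for the lower against the higher replicate numbers, were chosen after seeing the data.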

Other observations

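The genes next to Mical3 on the chromosome in RefSeq (GRCm38.p6, used for gene order only) had overlapping groups. Bid, which encodes a death agonist, averaged 33.0 after fear conditioning and 29.9 in context controls, and the mitochondrial Bcl2l13 352 and 311. On the other side, the peroxisomal import gene Pex26 averaged 44.2 after fear conditioning and 48.5 in context controls, and the tubulin gene Tuba8 19.1 and 16.7. Their log2 changes lay between -0.18 and 0.18, and in none of the 4 did the groups lie apart. Of all genes tested, 0.979% had every conditioned sample above every control and 0.939% below. With shares this low, nothing is read from the 4 neighbours. The neighbours of Mical2 were Dkk3, Usp47, Micalcl and Parva, with log2 changes between -0.22 and 0.15. Those of Mical1 lay between -0.029 and 0.79, those of Micall1 between -0.67 and 0.17, and the 2 of 4 tested beside Micall2 at 0.20 and 0.41. None of the 18 tested neighbours passed the threshold in limma, against 0% of all genes tested.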
